A study of Homo sapiens with 12 samples.

Results

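Cholesterol synthesis, uptake and sterol sensing were followed through 31 genes listed by name. The list was made with earlier results of these data known. Of the 31 genes, 28 were measured, out of 19775 genes represented on the arrays. FDFT1 and NR1H2 had no probe set under their own symbol in the annotation used, and CYP51A1 only probe sets with several symbols, so these 3 were not analysed here. NCI-H1299 is an established line from a human lung cancer of the non-small cell type, and RNA of 4 groups of 3 samples was measured. Parental cells were cultured with serum. Spheroid cells, which grow as floating clusters, were made by keeping monolayers in a stem cell medium for 7 to 10 days and moving the floating cells to flasks that hinder attachment. The other two groups were xenograft tumours grown from parental and from spheroid cells. No group carried an added gene or drug in the labels, and all 4 derive from the same line. The host strain, the time of tumour growth and whether each tumour had its own animal were not given by the labels. The labels call the 3 samples of each group biological replicates, without saying what sets them apart. The p-values therefore rest on the spread among these samples, which may in part be technical.

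Cells build cholesterol from acetyl-CoA through mevalonate, isoprenoid diphosphates, squalene and lanosterol, and then trim and reduce lanosterol in a series of late steps. Most genes of the route are switched on by SREBP transcription factors, which SCAP carries from the endoplasmic reticulum to the Golgi when membrane sterol is low, and which INSIG proteins hold back when it is high. Carriers such as STARD4, the lysosomal proteins NPC1 and NPC2 and the esterifying enzyme SOAT1 then move or store the sterol.

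Promoter sequence is shown for genes on which the results turn, because SREBPs are known to act together with the factors NF-Y and SP1. The 250 bases before the annotated start are given from RefSeq (GRCh38.p14), 5′ to 3′ on the gene's strand. STARD4 and MSMO1 stood highest in spheroid culture, LSS stood lowest there, and SREBF2 held the only match among the listed genes to the sterol response element TCACNCCAC. Capitals mark matches on either strand to that element, to the NF-Y box CCAAT and to the GC box GGGCGG.
STARD4, chr5:111512536-111512785, minus strand: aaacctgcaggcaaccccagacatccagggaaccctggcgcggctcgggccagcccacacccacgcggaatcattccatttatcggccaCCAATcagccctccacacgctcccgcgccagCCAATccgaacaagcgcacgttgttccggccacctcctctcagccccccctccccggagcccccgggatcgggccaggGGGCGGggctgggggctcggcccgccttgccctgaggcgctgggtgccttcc
MSMO1, chr4:165327419-165327668, plus strand: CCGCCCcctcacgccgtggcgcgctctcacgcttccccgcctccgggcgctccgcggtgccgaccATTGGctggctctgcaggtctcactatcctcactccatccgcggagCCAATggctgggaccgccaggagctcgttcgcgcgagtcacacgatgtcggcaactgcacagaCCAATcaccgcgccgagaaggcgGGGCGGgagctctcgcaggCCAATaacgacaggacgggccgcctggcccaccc
LSS, chr21:46228775-46229024, minus strand: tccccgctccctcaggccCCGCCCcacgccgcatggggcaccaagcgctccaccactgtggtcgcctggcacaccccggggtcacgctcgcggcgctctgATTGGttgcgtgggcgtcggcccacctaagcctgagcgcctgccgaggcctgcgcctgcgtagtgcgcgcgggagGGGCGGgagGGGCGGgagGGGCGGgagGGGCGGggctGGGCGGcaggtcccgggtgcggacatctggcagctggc
SREBF2, chr22:41832855-41833104, plus strand: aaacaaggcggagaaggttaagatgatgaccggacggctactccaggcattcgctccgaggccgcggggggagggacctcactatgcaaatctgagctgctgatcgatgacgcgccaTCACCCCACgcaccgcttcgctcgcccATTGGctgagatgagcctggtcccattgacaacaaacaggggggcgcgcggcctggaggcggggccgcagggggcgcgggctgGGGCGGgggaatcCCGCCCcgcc

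The promoter table held 37 windows of 28 of the 31 listed genes, CYP51A1 and NR1H2 included, and none of FDFT1, SQLE or ACAT2. Each window held 250 bases before and 50 after the start, and both strands were read. CCAAT occurred in windows of 20 genes, or 59.5% of the listed genes' windows, against 34.6% of all 35116 windows. GGGCGG occurred in windows of 26 genes, or 86.5% against 45.0% of all windows. TCACNCCAC occurred in 2.7% of the listed genes' windows, that of SREBF2, and in 1.13% of all windows. A match here is a string of letters and not a tested binding site.

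All values are log2 expression values of 1 probe set per gene, so a difference of 1 is a doubling on this scale, and levels of different genes cannot be set against each other. Of the 336 values of the 28 genes, 0 lay below the lower quartile of their array and 2 below its median. Array medians ran from 5.85 to 6.03. Parental culture replicate 1 stood apart in its control probe sets. Its interquartile range was the narrowest of the 12, at 2.82, but close to the 2.86 of spheroid culture replicate 1. The widest was 3.44, on parental culture replicate 2. For the 5′ end of 18S RNA parental culture replicate 1 read 6.96, against 10.50 on replicate 2 and 12.21 to 13.34 on the rest. The 3′ less 5′ signal of GAPDH, a sign of RNA quality, was 0.49 on parental culture replicate 1 and 0.019 to 0.13 on the other 11. This array held the lowest of the 12 values for 15 of the 28 genes, and for 19.7% of all genes. Parental culture replicate 2 held the lowest for 1 of the 28 and for 20.5% of all genes, and the highest for 5 and for 19.6%. Parental culture was also the most spread group, with a median SD of 0.37 over the 28 genes, against 0.24 in spheroid culture and, in xenografts, 0.20 for parental and 0.13 for spheroid cells. Of 6 markers listed for H1299 and epithelial cells, EPCAM and CDH1 lay below the arrays' lower quartiles on all 12 arrays. The epithelial keratins KRT8 and KRT18 and the cadherin CDH2 did not. VIM, a mesenchymal filament, read 13.55 to 14.70. The factor NKX2-1, 1 of 5 lung lineage markers measured, read between 6.40 and 7.09 in every sample. Whether that level marks expression was not tested.

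The first comparison set spheroid cells against parental cells in culture. The cultures also differed in medium, stem cell medium against serum, so cell type and medium cannot be told apart here. The genes did not move as a block: 5 of 28 (17.9%) passed the test, 4 lower and 1 higher in spheroids, where 2.46% of all genes were called (0.885% higher and 1.58% lower). LSS, which closes squalene epoxide into lanosterol, LBR, a nuclear envelope protein that also reduces a sterol double bond, SREBF1, which encodes SREBP-1, and OSBPL6, an oxysterol-binding family member, fell. STARD4, a soluble carrier of cholesterol between membranes, rose. The median difference over the 28 genes was 0.19, with 16 positive and 12 negative, against 0.07 over all genes. For 8 genes the groups shared no range, against 13.8% of all genes.

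**Figure D1:**
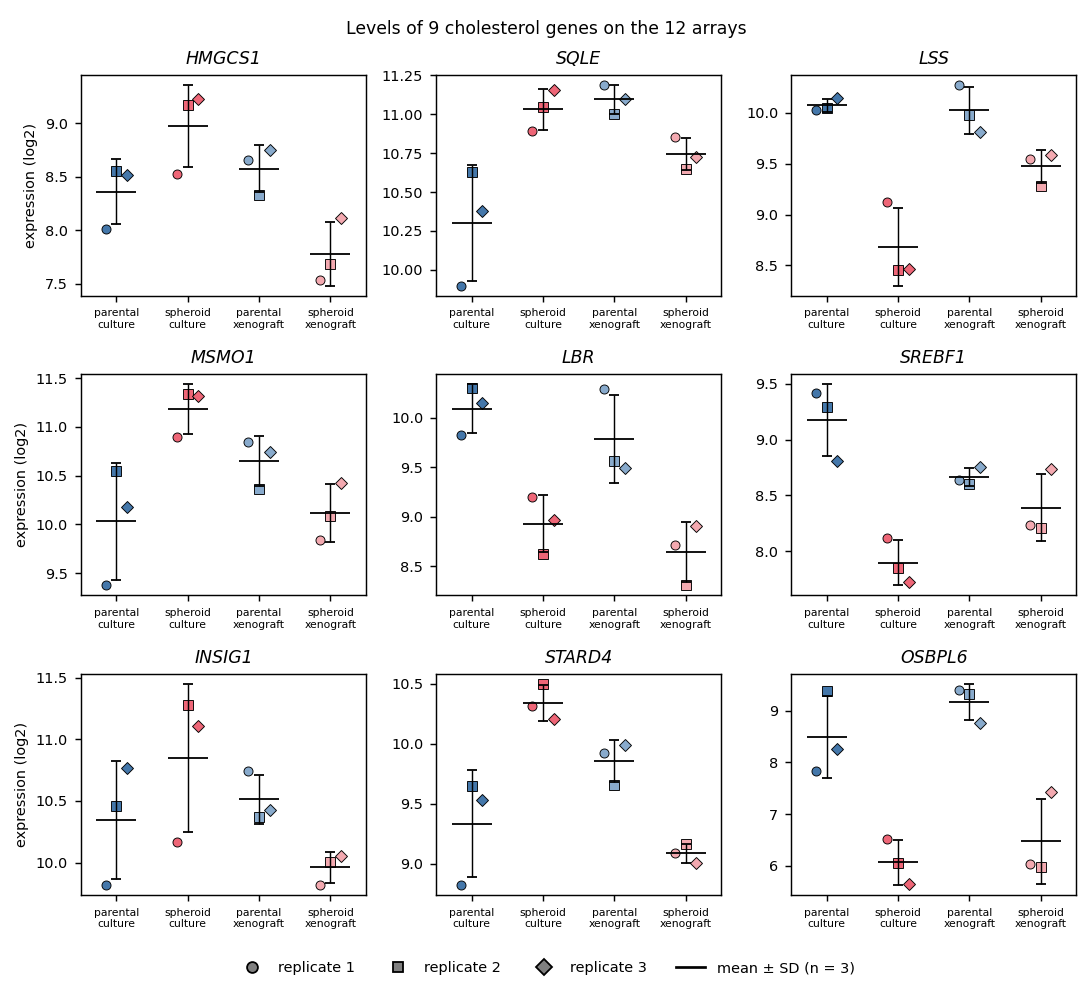
Log2 expression of 9 genes of cholesterol metabolism on the 12 arrays, 1 panel per gene with its own vertical range; points are arrays (the shape marks the replicate number) and bars are the group mean ± SD (n = 3). STARD4 was highest in the 3 spheroid cultures (10.20 to 10.50), LSS was lowest there (8.46 to 9.13), and OSBPL6 was lower in both spheroid groups than in both parental groups.

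LSS read 10.03, 10.04 and 10.15 in the 3 parental cultures and 9.13, 8.46 and 8.47 in the 3 spheroid cultures. The 2 groups did not overlap, and the difference was -1.39 (SE 0.20, limma adjusted p = 0.00552), a fall of 2.62-fold. Its other 2 probe sets had the same sign but smaller differences, -0.65 and -0.29, and the mean of the 3 probe sets differed by -0.78 (adjusted p = 0.0331 by limma). No other of the 5 calls was kept in every fit that left out 1 array: the highest adjusted p of LSS over those 12 fits was 0.0408.

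SREBF1 read 9.42, 9.30 and 8.81 in parental culture and 8.12, 7.85 and 7.72 in spheroid culture, again without overlap. The difference was -1.28 (SE 0.20, adjusted p = 0.00767 by limma). The other SREBF1 probe set differed by -0.26, and the mean of both by -0.77 (adjusted p = 0.0191 by limma). SREBF2, which encodes the SREBP most tied to cholesterol synthesis, differed by -0.02 (95% interval -0.42 to 0.38). LBR read 9.82, 10.31 and 10.15 in parental culture against 9.20, 8.62 and 8.97 in spheroids, a fall of 1.16 on the log2 scale (SE 0.25, adjusted p = 0.0301 by limma). OSBPL6 had the widest difference of the list, with 7.83, 9.37 and 8.26 in parental culture and 6.52, 6.05 and 5.64 in spheroids. It fell by 2.42 (SE 0.44, adjusted p = 0.0155 by limma), and all 3 of its probe sets were lower.

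STARD4 read 8.83, 9.65 and 9.53 in parental culture and 10.32, 10.50 and 10.20 in spheroid culture. Every spheroid value lay above every parental one, with a difference of 1.00 (SE 0.20, adjusted p = 0.0237 by limma). MSMO1 and SQLE missed the threshold narrowly. MSMO1, a sterol methyl oxidase of the late pathway, read 9.38, 10.55 and 10.17 against 10.89, 11.34 and 11.32, a difference of 1.15 (SE 0.28, adjusted p = 0.0510 by limma). SQLE, which oxidises squalene and is a slow step of the route, read 9.90, 10.63 and 10.38 against 10.89, 11.05 and 11.16, a difference of 0.73 (SE 0.18, adjusted p = 0.0549 by limma). Neither gene's groups overlapped.

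By role, 0 of the 5 mevalonate genes and 0 of the 3 isoprenoid genes passed in culture. HMGCS1, the synthase that precedes mevalonate, differed by 0.61 (adjusted p = 0.236 by limma). Its other probe set differed by 1.15, and 2 of 26 alternative settings called HMGCS1. The other 7 genes of these 2 roles (ACAT2, MVK, PMVK, MVD, IDI1, FDPS and GGPS1) differed by -0.26 to 0.36. Of the 8 late enzymes 1 passed, LBR, and apart from MSMO1 the rest, TM7SF2, NSDHL, HSD17B7 and DHCR7 among them, lay between -0.62 for the isomerase EBP and 0.52 for SC5D. Among the sensing genes INSIG1 differed by 0.50, with an SE of 0.29 (from 0.24 without parental culture replicate 1 to 0.85 without spheroid culture replicate 1), and MYLIP, a ubiquitin ligase that lowers lipoprotein receptors, by -0.68, with an SE of 0.28. Without parental culture replicate 1 the median over the 28 genes was -0.12, with 15 negative. When the fit held the 6 culture arrays alone, 0 of the 28 were called (0.0759% of all genes), without spheroid culture replicate 2 only LSS, without spheroid culture replicate 3 LSS and SREBF1, and after quantile normalisation 4 were higher and 4 lower. Without parental culture replicate 2 there were 8 calls (SQLE, MSMO1, EBP and NPC1 added, LBR lost), and LBR was lost too without parental culture replicate 3 or spheroid xenograft replicate 1.

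The second comparison asked whether spheroid and parental cells still differ after growth as tumours. In xenografts 1 of 28 genes passed, OSBPL6, which was lower in tumours from spheroid cells, where 0.233% of all genes were called. The median difference was -0.31, with 20 of 28 negative, against 0.02 over all genes. For 12 genes all 3 spheroid xenografts lay below all 3 parental xenografts, and for 3 genes (PMVK, TM7SF2 and SOAT1) above; over all genes the share without overlap was 16.5%, with 7.21% lower.

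OSBPL6 read 9.40, 9.33 and 8.76 in parental xenografts and 6.04, 5.97 and 7.42 in spheroid xenografts. The groups did not overlap, and the difference was -2.69 (SE 0.44, adjusted p = 0.0348 by limma), again with all 3 probe sets lower. The call was kept in 5 of the 12 fits that left out 1 array, with adjusted p up to 0.216, and was lost without any of parental culture replicate 3, spheroid culture replicates 2 and 3, parental xenograft replicates 1 and 2 and spheroid xenograft replicates 1 and 2.

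**Figure D2:**
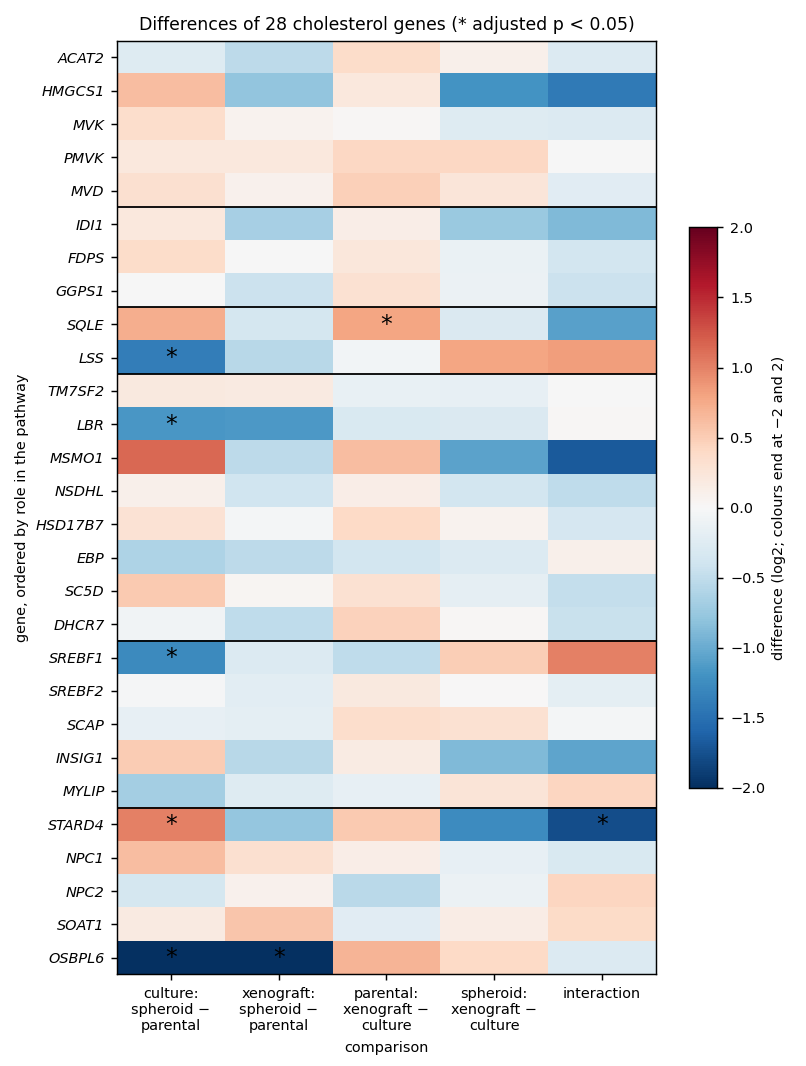
Colour map of the log2 difference of each of the 28 genes (rows, by role, with lines between roles) in the 5 comparisons (columns); red is higher, blue is lower, colours end at -2 and 2, and an asterisk marks an adjusted p under 0.05. The culture column holds 5 asterisks, at LSS, LBR, SREBF1, STARD4 and OSBPL6, and the xenograft column 1, at OSBPL6, with 20 of its 28 values negative.

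LBR came next in size: it read 10.29, 9.57 and 9.49 in parental xenografts and 8.72, 8.31 and 8.90 in spheroid xenografts, a difference of -1.14 (SE 0.25, adjusted p = 0.100 by limma). HMGCS1 read 8.66, 8.33 and 8.75 against 7.54, 7.69 and 8.11, a difference of -0.80 (SE 0.23, adjusted p = 0.270 by limma). Its other probe set differed by -0.55. STARD4 read 9.92, 9.66 and 9.99 against 9.09, 9.17 and 9.01, a difference of -0.77 (SE 0.20, adjusted p = 0.201 by limma). All 3 genes separated the 2 kinds of tumour without overlap but did not pass the test over all genes.

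The isomerase IDI1 differed by -0.66, LSS by -0.55, INSIG1 by -0.55, EBP by -0.52 and DHCR7, which makes the last double-bond reduction, by -0.51, each without overlap and each with an adjusted p of 0.317 or more by limma. SOAT1, which esterifies cholesterol for storage, differed by 0.56 the other way, with an SE of 0.47. With the replicate number as a block and only the 6 xenograft arrays in the fit, HMGCS1 (adjusted p = 0.0455 by limma), LBR (0.0437) and STARD4 (0.0441) passed beside OSBPL6, where 2.48% of all genes were called. The block in a fit to all 12 arrays called 0 of the 28.

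Of 10 fibroblast markers 1 was called between the 2 kinds of tumour. FAP fell by 1.35 on the log2 scale from parental to spheroid xenografts (adjusted p = 0.0365 by limma), the median over the 10 was -0.13, and their summed level ran from 9.91 to 10.46 in parental and from 9.92 to 9.96 in spheroid xenografts. Of 8 endothelial, 7 myeloid, 6 adipocyte and 6 hepatocyte markers measured, 0 were called between the tumours. In such bulk samples fewer cells of a type and less RNA per cell cannot be told apart. The probe sets were those of human genes, and how far they read RNA of host cells was not tested. These markers therefore do not measure the host cells of a tumour. The part of these markers in the differences of the cholesterol genes was not tested.

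**Figure D3:**
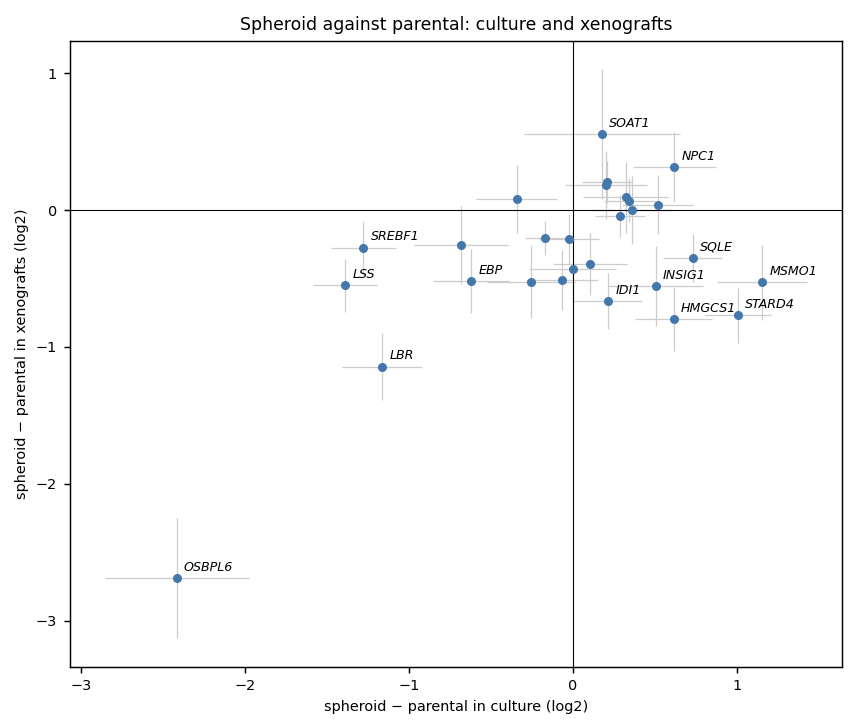
Spheroid minus parental difference in culture (horizontal axis) against the same difference in xenografts (vertical axis), both in log2 units, 1 point for each of the 28 genes with bars of 1 SE. Of 28 points, 11 lie below 0 on both axes, 9 are above 0 in culture and below 0 in xenografts, 7 are above 0 on both, and 1 is below 0 in culture and above 0 in xenografts.

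The signs of the 2 comparisons, which share no arrays, were counted side by side. Of the 28 genes, 9 (32.1%) were higher in spheroids in culture and lower in spheroid xenografts, among them HMGCS1, SQLE, MSMO1, INSIG1 and STARD4, against 24.1% of all genes. Another 11 (39.3%) were lower in both, among them LSS, LBR, SREBF1 and OSBPL6, against 21.7% of all genes. Most of these single differences did not pass the test, so the counts describe signs only.

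The next comparisons set each kind of xenograft against its own culture. They share arrays with the comparisons above, so each is given by its own values. In parental cells 1 of 28 genes passed, higher in tumours, where 3.47% of all genes were called. For 7 genes the groups did not overlap, against 13.6% of all genes. SQLE read 9.90, 10.63 and 10.38 in culture and 11.19, 10.999 and 11.10 in xenografts, a difference of 0.79 (SE 0.18, adjusted p = 0.0322 by limma), and its 4 probe sets had 1 sign. The median over the 28 genes was 0.21, against -0.01 over all genes, and 0.011 without parental culture replicate 1. The SQLE call was kept in 3 of the 12 fits that left out 1 array, without parental culture replicate 2 or without spheroid culture replicate 1 or 3; without parental culture replicate 1 its difference was 0.59.

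STARD4 stood 0.52 higher in parental xenografts than in their culture and SREBF1 0.51 lower, neither past the test (adjusted p = 0.230 and 0.231 by limma). Without parental culture replicate 1 the STARD4 difference was 0.27. Of the 10 fibroblast markers 3 rose here, FAP by 2.20, COL3A1 by 2.06 and POSTN by 0.84, and the summed level of that list was 9.37 to 9.82 in parental culture. Of the 6 markers listed for H1299 and epithelial cells 3 fell, the keratins KRT8 by 1.77 and KRT18 by 1.71 and the cadherin CDH2 by 0.71. The summed level of these 6 ran from 13.97 to 14.94 in parental culture and from 14.75 to 14.86 in parental xenografts. The limit on host cells given above holds here too. The part of either list in the SQLE difference was not tested.

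In spheroid cells 0 of 28 genes passed, where 0.0202% of all genes were called by limma; at an unadjusted p under 0.05 there were 9 of the 28, against 7.39% of all genes. For 11 genes the tumours and the cultures did not overlap, against 18.7% of all genes. STARD4 had the lowest adjusted p: its values of 10.32, 10.50 and 10.20 in spheroid culture stood against 9.09, 9.17 and 9.01 in spheroid xenografts, a difference of -1.25 (SE 0.20, adjusted p = 0.0595 by limma). HMGCS1 read 8.53, 9.17 and 9.22 in culture and 7.54, 7.69 and 8.11 in xenografts, a difference of -1.19 (SE 0.23, adjusted p = 0.102 by limma). Its other probe set differed by -1.56. MSMO1 read 10.89, 11.34 and 11.32 against 9.84, 10.09 and 10.43, a difference of -1.07 (SE 0.28, adjusted p = 0.225 by limma). In all 3 genes the tumours lay below the cultures without overlap.

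INSIG1, itself a known SREBP target and the anchor that retains SCAP, differed by -0.89 (11.28 and 11.11 in 2 spheroid cultures and 10.17 in the other, against 9.82 to 10.06 in the xenografts). IDI1 differed by -0.75, but only 2 of its 4 probe sets had that sign, and the probe set left when those that can read several transcripts were set aside differed by 0.44. LSS went the other way: it read 9.55, 9.28 and 9.58 in spheroid xenografts, above all 3 spheroid cultures, with a difference of 0.79 (SE 0.20, adjusted p = 0.201 by limma). Its other probe sets differed by 0.34 and 0.01, and the mean of the 3 by 0.38. With the replicate number as a block and only these 6 arrays in the fit, STARD4 (adjusted p = 0.00774 by limma), HMGCS1 (0.0104), MSMO1 (0.0106), IDI1 (0.0333) and LSS (0.0447) passed, where 2.99% of all genes were called. The block fitted to all 12 arrays called 0 of the 28, with STARD4 at an adjusted p of 0.108 and HMGCS1 at 0.100 by limma. After quantile normalisation STARD4, HMGCS1 and MSMO1 were called, and STARD4 alone without parental culture replicate 1 or 2.

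The interaction asked whether the spheroid to parental difference itself differs between tumours and culture. It was called for 1 of 28 genes, STARD4, where 0.137% of all genes were called. STARD4 was 1.00 higher in spheroids in culture and 0.77 lower in spheroid xenografts, a difference of differences of -1.77 (SE 0.29, adjusted p = 0.0416 by limma). From highest to lowest its group means were 10.34 ± 0.15 in spheroid culture, 9.86 ± 0.17 in parental xenografts, 9.33 ± 0.44 in parental culture and 9.09 ± 0.08 in spheroid xenografts (SD, n = 3 each). The last 2 overlapped, and the other neighbours did not. The call was kept in 2 of the 12 fits that left out 1 array, those without parental culture replicate 1 or 2, with adjusted p up to 0.151; it was lost after median centring and with the replicate block.

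**Figure D4:**
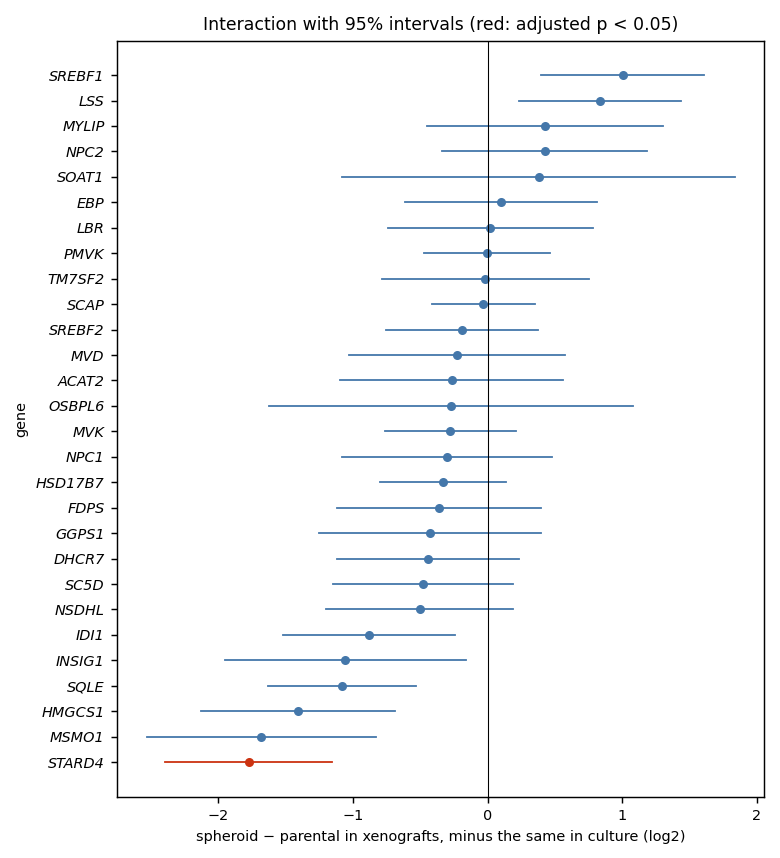
Interaction for the 28 genes: the difference of spheroid and parental cells in xenografts less the one in culture, in log2 units, with 95% intervals. STARD4 (-1.77, red) is called, and MSMO1, HMGCS1 and SQLE follow at -1.68, -1.41 and -1.08.

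MSMO1 (-1.68, SE 0.39), HMGCS1 (-1.41, SE 0.33) and SQLE (-1.08, SE 0.25) had the same sign, with adjusted p = 0.152, 0.155 and 0.152 by limma. These 3 enzymes were called beside STARD4 after quantile normalisation, after cyclic loess and with the interquartile range of the array as a covariate, and SQLE and MSMO1 also without parental culture replicate 2. The other HMGCS1 probe set gave -1.69. SREBF1 had the opposite sign, 1.00 (SE 0.28, adjusted p = 0.268 by limma). The median over the 28 genes was -0.28, against -0.04 over all genes, and -0.070 without parental culture replicate 1. Of the 18 measured enzymes of synthesis, 15 had a negative interaction and 3 a positive one: LSS (0.84), EBP (0.10) and LBR (0.02). That is 16.7% positive, against 43.4% of all genes. Of the 18, 0 were called, and some negative values, as of PMVK (-0.002) and TM7SF2 (-0.02), were close to no difference.

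SCAP, SREBF2, NPC1 and NPC2 were called in none of the 5 comparisons by limma. SCAP, the SREBP escort, ranged from -0.20 to 0.35 over the 4 comparisons of 2 groups, and SREBF2 from -0.21 to 0.20. NPC1 and NPC2, which release cholesterol from lysosomes, ranged from -0.17 to 0.62 and from -0.55 to 0.08.

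Other genes of the pathway were read from 4 lists, of which 70 of 76 genes were measured. In culture 3 (4.29%) passed, against 2.46% of all genes: OSBPL2, another oxysterol-binding family member, rose by 0.89, ALDOC, a glycolytic aldolase counted among SREBP targets, rose by 1.71, and MID1IP1, a partner of acetyl-CoA carboxylase, fell by 1.83 in spheroids. In xenografts ALDOC alone (1.43%, against 0.233% of all genes) passed, at 1.68. In parental cells 4 passed (5.71%, against 3.47% of all genes). PLTP, a phospholipid transfer protein, rose by 2.05 in tumours of parental cells, SCARB2 by 1.18 and CAV1, the coat protein of caveolae, by 0.91, and MID1IP1 fell by 1.49. In spheroid cells and in the interaction 0 of 70 passed by limma, where 0.0202% and 0.137% of all genes did. At an unadjusted p under 0.05 there were 8 of the 70 in each. Over all 19775 genes there were 1461 (7.39%) in spheroid cells and 1465 in the interaction. VLDLR, a lipoprotein receptor, read 7.73, 7.44 and 7.21 in spheroid culture against 5.63, 5.58 and 5.94 in spheroid xenografts, a difference of -1.74 (adjusted p = 0.102 by limma), without overlap.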

How the data were processed

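Per the submitters' processing notes, the deposited log2 values were made with RMA and the R package affy, with no version and no word on joint normalisation. That the deposited values are log2 was read from their range. RNA (2 µg per array) was hybridised to an array with 54675 probe sets; 41097 had 1 gene symbol, 1801 several and 11777 none, and 62 were controls. Each of the 19775 genes took its single-symbol probe set with the highest mean. With R 4.3.3 and limma 3.58.1, lmFit and eBayes were run on the 12 arrays with a mean for each group (8 residual degrees of freedom). The 5 comparisons were two-sided, and a call needed an adjusted p under 0.05 (Benjamini-Hochberg, all genes). The number of arrays limits precision: the median SE was 0.20, and 0.28 for the interaction. An exact test of 3 against 3 cannot go below p = 0.1.

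The members and lists were chosen with earlier results of these data known. Every measured member was named, with every array's values mainly where it was called, where groups did not overlap at a difference of 0.5 or more, or where the interaction was large; other pathway genes were named where called or among the largest differences. Same-numbered arrays deviated together between the 2 kinds of xenograft (r = 0.18, 0.21 and 0.48 over genes) and between spheroid culture and xenografts (0.34, 0.33 and 0.43). Some xenografts of unlike number did so too, parental 2 with spheroid 1 (0.26) and parental 1 with spheroid 2 (0.15). Between spheroid culture and xenografts, unlike numbers ran from -0.44 to 0.05. The labels do not say what a number marks. For these 2 comparisons the replicate block is given beside the results where it changes a call. Alternatives were other normalisations, probe set rules, filters, fits and left-out arrays. The pipeline was tested on simulated data.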

Additional observations from a re-analysis of the deposited data

Results flagged for a closer look

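In the main fit the spheroid to parental difference of STARD4 was not the same in culture and in xenografts. The interaction was -1.77 on the log2 scale (SE 0.29, adjusted p = 0.0416 by limma). That call was kept in only 2 of the 12 fits that left out 1 array, with adjusted p up to 0.151 by limma. The 3 spheroid cultures lay above and the 3 spheroid xenografts below all 3 parental samples of their kind. In culture the medium differed too, so cell origin and medium cannot be told apart in this result. STARD4 was read by 1 probe set.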

How the results depend on the processing

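Of the 31 member differences given with full values, 795 values under alternatives held 662 with the same direction and side of the threshold, 71 newly past it, 61 no longer past it and 1 of opposite sign, IDI1 between spheroid xenografts and culture (0.44 without probe sets that can read several transcripts). No called difference changed sign, while 48 of all 140 did under some alternative. Counts of called members, in the order culture, xenografts, parental cells, spheroid cells and interaction, were 5, 1, 1, 0 and 1. Leaving out 1 array gave 1 to 8, 0 to 1, 0 to 1, 0 to 1 and 0 to 3. In culture, quantile normalisation over all arrays or within culture and xenografts gave 8, only the compared groups 0, array spread as a covariate 10, array weights 9, and leaving out parental culture replicates 1 and 2 gave 1, LSS, where the lone parental array is assumed to vary like the others. In xenografts median centring gave 0, array spread 2, weights 6 and those 2 arrays left out 2. In parental cells median centring, the mean of a gene's probe sets, only the compared groups, trended robust eBayes and those 2 arrays left out each gave 0, and weights 3. In spheroid cells both quantile settings, loess and array spread each gave 3, only the compared groups 1, weights 7 and those 2 arrays left out 1. In the interaction both quantile settings, loess and array spread each gave 4, weights 5 and median centring 0. The share of all genes called moved with these settings too. With array weights it was 11.8% in parental cells, against 3.47% in the main fit. In spheroid cells it was 4.63% against 0.0202%, and in the interaction 4.53% against 0.137%. With array spread as a covariate the 3 shares were 9.61%, 1.03% and 1.8%. A higher count here is therefore not a result about the listed genes alone.

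The replicate block over all groups gave 0 in xenografts, in parental cells, in spheroid cells and in the interaction, and 6 in culture. The block with only the compared groups gave 0 in culture, 4 in xenografts, 0 in parental cells and 5 in spheroid cells. In culture (r = 0.33, -0.24 and -0.30) and in parental cells (0.19, -0.45 and -0.43) same-numbered arrays did not deviate together. The causes of these changes were not tested.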
